A study of Homo sapiens with 2 samples.

Results

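Colon organoids grown from induced pluripotent stem cells held a population of EPCAM-positive epithelial cells that carried intermediate amounts of TTR transcript, the messenger of the thyroid hormone and retinol carrier transthyretin. These cells numbered 284 of 3257 barcodes in the untreated library (CNT) and 374 of 1641 barcodes in the library treated with 3 cytokines (3CK), or 658 of 4898 in all. They were chosen from measured values. A barcode was kept when it held at least 10000 unique molecular identifiers (UMIs, 1 per captured transcript), at most 20% mitochondrial UMIs and, per 10000 of its UMIs, fewer than 300 of the nuclear RNA MALAT1, at least 2 of the epithelial adhesion gene EPCAM, fewer than 5 of the collagens COL1A1, COL1A2 and COL3A1 together, and 50 to under 500 of TTR. It also had to hold fewer than 2 per 10000 of the enterocyte genes FABP2 and RBP2, of the endocrine genes CHGA, CHGB, MLN and GHRL, and of the proliferation genes TOP2A, MKI67, CENPF, UBE2C, CDK1 and BIRC5, each group summed. Levels of these genes are therefore given only as a description.

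Transthyretin is made by hepatocytes, yolk sac endoderm and the choroid plexus, together with other secreted plasma proteins such as the apolipoproteins, fibrinogen and alpha-fetoprotein. Colon epithelium itself is built by the transcription factor CDX2, holds keratins 8 and 18, and is covered with mucus and brush border proteins. IFN-γ acts through the receptor IFNGR1/IFNGR2, the kinases JAK1 and JAK2 and factors that read GAS elements, and through IRF1, which reads ISRE elements. TNF-α and IL-1β act through TNFRSF1A and IL1R1 on NF-kB, which reads kB sites. In inflamed colon epithelium these cytokines are known to drive chemokines, antigen presentation and antimicrobial proteins.

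The cells came from 2 single-cell 3' libraries, 1 per group, of organoids of 1383D6, an established line of human iPS cells, in a study titled as a model of ulcerative colitis. CNT received no added cytokine, and 3CK received IFN-γ, TNF-α and IL-1β over 8 days. Both groups shared the differentiation: Activin A at 100 ng/mL with Y-27632 up to day 3, FGF2 at 100 ng/mL up to day 7, then culture in Matrigel with EGF at 20 ng/mL, forskolin at 30 µM, PD98059 at 20 µM, 5-aza-2'-deoxycytidine at 5 µM and further agents. Both were dissociated with trypsin and about 8300 cells were loaded per library. Because there is 1 library of 1 line per group, no difference has a replicate check and no test was made. Every interval below is a 95% interval that covers counting error only.

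Members held 19918398 UMIs in CNT, 18.9% of that library's 105314879, and 39023094 UMIs in 3CK, 41.1% of its 94887438. The median member had 64872 UMIs in CNT (10052 to 191819) and 101380 in 3CK (10352 to 278028). Below, UMIs are summed over the members of a library and divided by all their UMIs to give CPM, the usual depth-scaled unit of transcript level, and a ratio is the log2 of 3CK over CNT. At these depths 3 UMIs equal 0.151 CPM in CNT and 0.0769 CPM in 3CK. No barcode sequence was shared by the libraries. A doublet score picked out 1 member in CNT and 5 in 3CK.

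EPCAM and TTR chose the members, so their values are a description, and KRT18 and CDX2 are the markers that the choice did not use. After each barcode was thinned to 10000 UMIs, EPCAM had a UMI in 99.6% of CNT and 99.5% of 3CK members, against 14.5% of 214 and 13.8% of 58 reference barcodes rich in collagen transcripts (at least 20 per 10000), which were chosen with EPCAM under 1. The median depth of those reference barcodes was 54053.5 UMIs in CNT and 75991 in 3CK. KRT18, an intermediate filament protein of simple epithelia, was found in 99.6% and 100% of members, but also in 99.5% and 100% of the reference barcodes, so it does not mark members alone. TTR had a UMI in 100% of CNT and 84.5% of 3CK reference barcodes, and the source of these UMIs was not tested. The level there was a median of 8.40 per 10000 UMIs in CNT (at most 83.6) and 2.11 in 3CK (at most 20.1), against the lower limit of 50 for members. The gut transcription factor CDX2 had a UMI in 52.1% of CNT and 48.7% of 3CK members, and in 25.7% and 19% of reference barcodes.

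Intermediate TTR was a range on a continuum, and cells lay close to its limits. Of barcodes that passed every other condition, members were 37.2% in CNT (284 of 763, Clopper-Pearson interval 33.8 to 40.8) and 64.0% in 3CK (374 of 584, 60.0 to 67.9). Those with less TTR (TTR-low) were 47 (6.16%, 4.56 to 8.11) in CNT and 145 (24.8%, 21.4 to 28.5) in 3CK. Those with more (TTR-high) were 432 (56.6%) in CNT and 65 (11.1%) in 3CK. Just outside and inside the lower limit, from 45 to 50 and from 50 to 55 per 10000, lay 5 and 0 barcodes in CNT and 18 and 19 in 3CK. Around the upper limit, 450 to 500 held 39 CNT and 10 3CK barcodes, and 500 to 550 held 31 and 14. The nearest values were 49.9 and 60.6 at the lower limit and 499.7 and 501.8 at the upper in CNT, and 49.4, 50.3, 492.5 and 503.5 in 3CK.

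Inside the range the libraries were placed differently. The median member had 281 TTR UMIs per 10000 in CNT and 163 in 3CK. From 50 to 100 per 10000 there were 24 CNT members (8.45%) and 98 3CK members (26.2%), from 100 to 200 there were 60 (21.1%) and 120 (32.1%), and from 200 to 500 there were 200 (70.4%) and 156 (41.7%). Cells that kept their TTR level and cells that reached the range from a higher level cannot be told apart, so each ratio compares cells of one TTR range and not one set of cells before and after treatment. Fewer cells and less RNA per cell cannot be told apart from summed UMIs either. Members with at least 20 MALAT1 UMIs per 10000 were 117 of 284 in CNT (41.2%, 35.4 to 47.2) and 89 of 374 in 3CK (23.8%, 19.6 to 28.4), and the median mitochondrial share was 2.92% and 2.04%. The part of MALAT1-rich barcodes in the results was not tested, and values without them are given for some results only. Without them, 101 ratios of genes named by the rule given below lay outside their counting interval. Another 1 turned direction and 99 did neither. Of the 47 list medians, 22 stayed about the same.

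**Figure D1:**
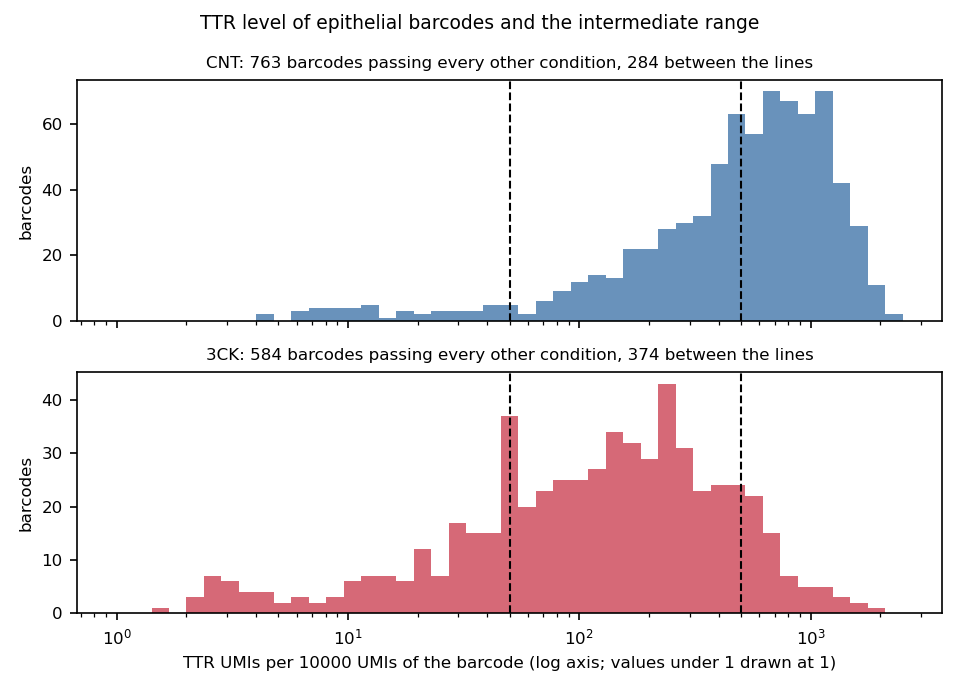
Number of barcodes passing every other condition by their TTR UMIs per 10000 UMIs (log axis), for CNT and 3CK; dashed lines mark 50 and 500. Most CNT barcodes lie above 500 (432 of 763), and most 3CK barcodes lie between the lines (374 of 584).

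Across the transcriptome more genes were lower than higher in 3CK members. Of 9784 genes that reached 10 CPM in one library or the other, genes of the selection rule left out, 577 (5.9%) were at least 2-fold higher and 1421 (14.5%) at least 2-fold lower, and the median ratio was -0.24. This split depends on the scaling. With TMM factors, which centre on the bulk of genes, the median over all genes moved by 0.44, to 0.20, and 1043 genes were at least 2-fold higher and 735 lower, so that ratios a little below 0 in what follows turn positive under that scaling. Without MALAT1-rich barcodes the counts were 556 and 978, and 533 of the 577 higher and 1124 of the 1421 lower genes were among them.

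At the top of the ratios stood 12 genes, CXCL10, IDO1, CXCL11, CXCL9, CCL3, GBP5, PSMB9, DEFB4A, OAS2, PIGR, LCN2 and CCL3L1, all of them known immune response or defence genes. CXCL10, which draws CXCR3-bearing T cells, counted 5 UMIs over all CNT members against 75171 over all 3CK members, or 0.251 against 1926 CPM, a ratio of 12.91 (11.68 to 14.53). IDO1, which starts the breakdown of tryptophan, had 2 and 22437 UMIs, a ratio of 12.48 (10.63 to 15.53). The counting intervals of both ratios lie far from 0. Among the 12 with the smallest ratios were REG4, GSTA2, SMLR1, PDE3A, C20orf204, RGN, CUBN, FMO5, FGFR2, FLRT2 and SCGN, from -5.45 to -3.74. Of these, REG4 is a secretory lectin and GSTA2 and FMO5 are detoxification enzymes.

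The 3 CXCR3 ligands lie side by side on chromosome 4 and were all near absent in CNT and abundant in 3CK members, so the 250 bases before each start are printed here, on the gene's strand (minus), from RefSeq (GRCh38.p14). No exon is annotated in these windows. CXCL9 (ENSG00000138755) is at chr4:76007510-76007759, CXCL10 (ENSG00000169245) at chr4:76023498-76023747 and CXCL11 (ENSG00000169248) at chr4:76036071-76036320. Capitals mark matches to ISRE (GAAA and GAAA with 2 bases between them), GAS (TTC and GAA with 3 bases between them) or kB (GGGA and TTCC with 2 bases between them), searched on both strands.
CXCL9: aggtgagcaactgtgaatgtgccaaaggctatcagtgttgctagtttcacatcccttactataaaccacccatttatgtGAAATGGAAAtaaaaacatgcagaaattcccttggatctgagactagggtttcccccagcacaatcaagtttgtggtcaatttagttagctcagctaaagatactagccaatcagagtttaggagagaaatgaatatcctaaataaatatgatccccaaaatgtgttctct
CXCL10: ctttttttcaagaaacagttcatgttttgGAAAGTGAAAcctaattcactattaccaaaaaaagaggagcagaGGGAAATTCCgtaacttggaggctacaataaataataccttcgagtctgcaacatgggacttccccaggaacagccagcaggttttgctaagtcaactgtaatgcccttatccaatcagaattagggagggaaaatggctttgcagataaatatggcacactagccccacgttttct
CXCL11: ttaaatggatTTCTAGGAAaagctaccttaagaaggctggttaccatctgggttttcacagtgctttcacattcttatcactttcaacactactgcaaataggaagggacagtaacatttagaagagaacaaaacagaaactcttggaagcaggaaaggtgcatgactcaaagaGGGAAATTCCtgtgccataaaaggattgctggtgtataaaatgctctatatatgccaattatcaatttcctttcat
CXCL10 holds the ISRE match GAAAGTGAAA 221 to 212 bases before its start and the kB match GGGAAATTCC 177 to 168 bases before it. CXCL9 holds the ISRE match GAAATGGAAA at 171 to 162, and CXCL11 the GAS match TTCTAGGAA at 240 to 232 and GGGAAATTCC at 76 to 67. Of 35116 promoters of the same length, 3.02% held an ISRE match, 6.57% a GAS match, 1.40% a kB match and 10.5% any of the 3. Of the 12 genes with the largest ratios, 7 were in the promoter table and 4 of those held a match, the fourth being LCN2 with kB. Of the 12 with the smallest ratios, 11 were in the table and 1, FMO5, held a match (GAS). A match is a description of letters and not a bound site.

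Chemokines for T cells and monocytes were the list furthest apart between the libraries. All 8 of the 11 CXCR3 ligand and CC chemokine genes that reached 10 CPM were at least 2-fold higher in 3CK members, with a median ratio of 8.87 (6.87 to 9.93 over the alternative settings), against -0.24 over all genes. Genes near 0 CPM in CNT could reach that level through 3CK alone, so their place among the higher genes was fixed in advance. The same holds for such genes in the lists below. CXCL11 stood at 0.201 and 285 CPM, CXCL9 at 0.10 and 98.2 CPM with 2 UMIs in CNT (ratio 9.93, 8.08 to 12.98), and CCL3 at 0.351 and 263 CPM. CCL3 and its near-identical copy CCL3L1 (1.56 and 292 CPM) share reads that the counting could split. CCL5, which draws T cells, stood at 0.10 and 29.2 CPM and CCL2, which draws monocytes, at 0.803 and 29.0 CPM. CCL20, which draws CCR6-bearing lymphocytes, was already present without cytokines, at 39.7 CPM, and reached 422 CPM.

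Genes that recruit neutrophils were higher as well. All 7 of 9 genes of the neutrophil chemokine and colony-stimulating factor list at this level were at least 2-fold higher, with a median of 3.76. CXCL5 stood at 41.1 and 585 CPM, CXCL1 at 12.4 and 153 CPM and CXCL8, which encodes interleukin 8, at 3.01 and 44.6 CPM. CSF3, the granulocyte growth factor, counted 1 UMI without and 605 with cytokines, a ratio of 8.27 (5.79 to 13.58). Of interleukins and TNF family ligands, 7 of 8 were at least 2-fold higher (median 2.61). IL32 stood at 475 and 4096 CPM, and TNFSF10, the death ligand TRAIL, at 12.8 and 423 CPM. IL18, which epithelium makes constitutively, was close in the libraries, at 122 and 143 CPM.

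The signalling chain of IFN-γ was higher in nearly all its members. Of 16 genes, all at the level used, 14 were at least 2-fold higher, with a median of 1.51. The receptor chain IFNGR1 stood at 72.4 and 233 CPM and IFNGR2 at 47.8 and 57.9 CPM, a ratio of 0.28. The transcription factor IRF1 stood at 16.6 and 382 CPM (4.53). The feedback inhibitor SOCS1 stood at 3.11 and 74.6 CPM, and BATF2, a partner of IRF1, at 0.753 and 137 CPM.

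Guanylate-binding proteins, GTPases that attack intracellular microbes, were higher in all 5 of 7 genes at this level (median 6.69). GBP5 counted 17 UMIs without and 21579 with cytokines (ratio 9.34, 8.66 to 10.12). Antiviral IFIT, MX and OAS genes were at least 2-fold higher in 23 of 23 genes at the level (24 listed), with a median of 4.30. ISG15, a ubiquitin-like modifier, stood at 472 and 5984 CPM, IFI27 at 409 and 5220 CPM and IFIT3, which binds viral RNA complexes, at 12.1 and 623 CPM. OAS2, a sensor of double-stranded RNA, had the largest ratio of the list, with 5 and 2877 UMIs (8.20), and IFITM2 the smallest (1.24). PLAAT4, an interferon-induced phospholipase that belongs to no list, stood at 29.5 and 4146 CPM and was chosen after its value was seen.

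Transcripts of MHC class I presentation genes were higher, from the immunoproteasome to the heavy and light chains. The immunoproteasome subunit PSMB9 counted 40 UMIs without and 26924 with cytokines, or 2.01 and 690 CPM (ratio 8.42, 7.98 to 8.91), and all 5 genes of that list were at least 2-fold higher (median 3.01). Of 14 constitutive proteasome genes 4 were, with a median of 0.62 and the largest ratio for PSMA6 (1.86). The peptide pump gene TAP1 stood at 9.84 and 594 CPM. The light chain B2M stood at 1293 and 10371 CPM (3.00). The heavy chains HLA-B, at 281 and 5567 CPM, and HLA-C, at 358 and 3826 CPM, are similar in sequence, so reads may be shared between them. The general endoplasmic reticulum chaperones PDIA3 (-0.03) and CALR (0.13) were near 0, and they were the list's members below 2-fold, with 13 of 15 at or above it.

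MHC class II genes were at low levels in both libraries. The master regulator CIITA counted 2 UMIs without and 5 with cytokines, and HLA-DRA 1 and 2. CD74, the invariant chain, stood at 14.4 and 82.7 CPM (ratio 2.52), and HLA-DPB1 at 56.4 and 69.5 CPM (0.30). Only these 2 of 10 genes reached 10 CPM.

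Epithelial defence genes were at least 2-fold higher in 18 of 20 genes at the level (24 listed), with a median of 3.53. LCN2, which withholds iron from bacteria, counted 51 UMIs without and 23302 with cytokines (7.87, 7.47 to 8.29). PIGR, the transporter of secretory antibodies, had 8 and 3710 UMIs (7.89, 6.91 to 9.10), and DEFB4A, the gene of beta-defensin 2, had 11 and 6652 (8.27, 7.43 to 9.27). The acute-phase genes SAA1 and SAA2, near-identical in sequence, stood at 11.2 and 938 CPM and at 5.07 and 908 CPM. The hydrogen peroxide producer DUOX2 stood at 101 and 445 CPM and its maturation factor DUOXA2 at 62.4 and 647 CPM, whereas DUOX1 was 2-fold lower (24.1 and 12.0 CPM). NOS2, which makes nitric oxide, stood at 1.00 and 60.7 CPM and complement C3 at 6.43 and 161 CPM.

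Genes that restrain or engage lymphocytes differed too. Besides IDO1, WARS, the tryptophanyl-tRNA synthetase, stood at 53.8 and 1323 CPM, while TDO2, the hepatic enzyme of the same first step as IDO1, stood at 43.9 and 26.7 CPM. CD274, which encodes PD-L1, counted 1 UMI without and 1224 with cytokines (9.29, 6.81 to 14.59). The adhesion ligand ICAM1 stood at 22.3 and 828 CPM and CD40 at 1.36 and 173 CPM. In the checkpoint and adhesion list 8 of 9 genes were at least 2-fold higher, with CD58 (-0.44) the exception. Of 20 cell death genes at the level, 16 were at least 2-fold higher and none lower: the inflammasome protease CASP1 stood at 0.502 and 52.4 CPM and APOL1 at 2.01 and 211 CPM, against 236 and 241 CPM for BAX.

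Receptors of the added cytokines were not uniformly higher. TNFRSF1A stood at 62.5 and 95.3 CPM (0.61) and TNFRSF1B at 0.753 and 17.4 CPM (4.53). IL1R1 was at 6.83 and 5.00 CPM, under the level used, and its partner IL1RAP at 28.0 and 9.23 CPM (-1.60). Of the cytokines' own genes, TNF had 13 and 564 UMIs (4.47), IL1B was at 1.81 and 9.81 CPM, and IFNG had 1 UMI in each library. Of the NF-kB inhibitors, NFKBIA stood at 50.2 and 140 CPM and TNFAIP3 at 10.8 and 49.4 CPM, whereas NFKBIB (-0.08) and NFKBIE (0.91) did not reach 2-fold. The subunit genes NFKB1 (0.13) and RELA (0.52) were nearer to 0, and in the whole list 7 of 13 genes were at least 2-fold higher and none lower (median 1.16).

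**Figure D2:**
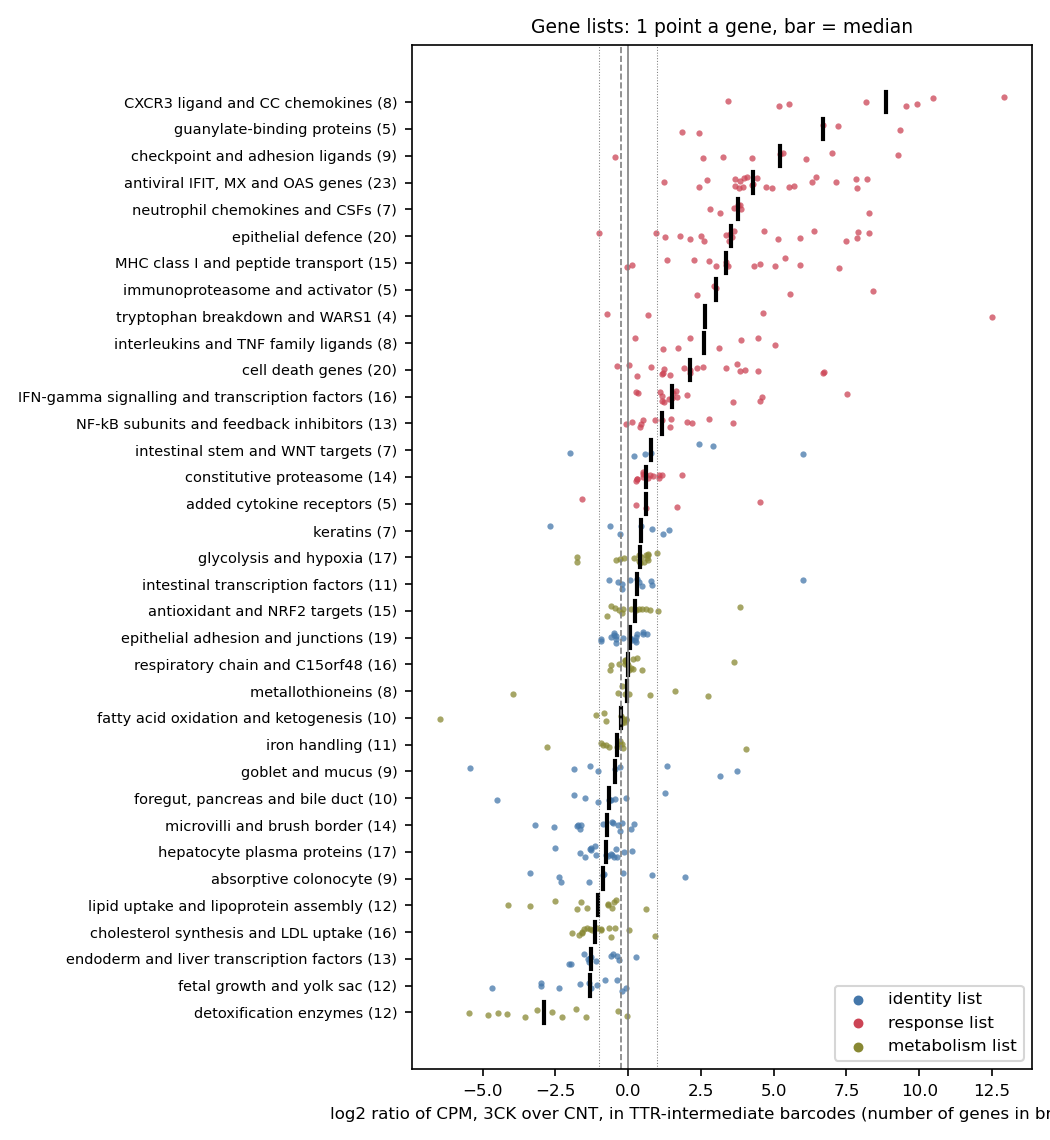
Log2 ratio of CPM, 3CK over CNT, of listed genes that reached 10 CPM in one library or the other, 1 point a gene. Black bars mark list medians, dotted lines 2-fold and a dashed line the median of all genes (-0.24). The HOX and MHC class II lists, with few such genes, are not drawn. Nor are the lists of the unfolded protein response, dissociation stress and other cell types. Antiviral genes lie to the right (median 4.30), detoxification enzymes to the left (-2.88) and junction genes around 0 (0.06).

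Hepatic transcripts other than TTR were lower in 3CK members, unevenly. Of 17 plasma protein genes at the level (20 listed, TTR left out), 8 were at least 2-fold lower and none higher, with a median of -0.75 (-0.92 to -0.35 over the settings). Apolipoprotein B, the scaffold of large lipoproteins, stood at 660 and 115 CPM (-2.52). AFP, the fetal counterpart of albumin, stood at 6878 and 2168 CPM (-1.67), ALB at 1077 and 382 CPM, and the fibrinogen chain FGA at 1314 and 539 CPM. APOA1, the main protein of high-density lipoprotein, was close, at 7821 and 6047 CPM (-0.37), and with TMM factors its ratio turned to 0.03. SERPINA1, an acute-phase protease inhibitor, stood at 861 and 779 CPM (-0.14), and RBP4, the retinol carrier that binds transthyretin, at 1904 and 2099 CPM (0.14). TTR itself, which set the range, was at 29078 and 19686 CPM.

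Transcription factors of endoderm and liver were lower with them: 8 of 13 at the level were at least 2-fold lower and none higher (median -1.28, -1.36 to -0.89 over the settings). FOXA1 stood at 73.3 and 18.0 CPM (-2.03), HNF4A, a regulator of apolipoprotein genes, at 45 and 17.3 CPM (-1.38) and CEBPA at 59.7 and 21.1 CPM (-1.5). FOXA2 (-0.38) and PROX1 (0.28) were nearer to 0. Fetal growth and yolk sac genes were at least 2-fold lower in 8 of 12 (median -1.31, -1.62 to -0.90 over the settings). The imprinted RNA H19 stood at 95.5 and 12.0 CPM, the cell cycle inhibitor CDKN1C at 580 and 111 CPM, and the hormone gene APELA at 79.0 and 9.87 CPM.

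Detoxification enzymes were the list with the lowest median among the metabolic lists, at -2.88, with 10 of 12 genes at the level at least 2-fold lower. The glutathione transferases GSTA2 (272 and 9.58 CPM) and GSTA1 (234 and 19.9 CPM) are near-identical, so their split is uncertain, but both were lower. UGT3A1, a sugar transferase, stood at 49.6 and 1.13 CPM and ALDH1A1, which makes retinoic acid, at 119 and 19.4 CPM. CYP3A5 (20.3 and 19.7 CPM) and GSTP1 (2534 and 1981 CPM) were near 0 in ratio.

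In the fatty acid oxidation list, whose enzymes burn lipid in mitochondria, all 10 genes at the level were lower. At least 2-fold lower were 2 of them, where 14.5% of all genes were. ACAA2 stood at 193 and 182 CPM and CPT2 at 17.9 and 17.2 CPM. The median was -0.23, turning to 0.17 with TMM factors. Lipid uptake genes were lower in 6 of 12 by at least 2-fold (median -1.05, -1.41 to -0.65 over the settings). The endocytic receptor CUBN stood at 118 and 6.79 CPM, the fatty acid carrier FABP1 at 643 and 62.3 CPM (-3.37, -3.43 to -3.30) and MTTP, which loads lipid onto APOB, at 77.6 and 29.2 CPM. Cholesterol synthesis genes were at least 2-fold lower in 9 of 16 (median -1.15, -1.33 to -0.66 over the settings), among them the demethylating enzyme MSMO1 at 135 and 35.3 CPM.

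Intestinal transcription factors did not reach 2-fold lower in any gene at the level. CDX2 stood at 86.5 and 90.9 CPM (0.07), and of 11 intestinal transcription factors at the level 1 was at least 2-fold higher and none lower. Over all genes 5.9% were at least 2-fold higher and 14.5% lower, and for 11 genes the counts lie near those shares. The median was 0.29, and it ranged from -0.21 to 0.69 over the settings, so it has no fixed direction. The higher one was the stem cell factor ASCL2, with 4 UMIs in CNT, at 0.201 and 13.0 CPM. LGR5, the classical stem cell marker, was under 1 CPM in both (0.402 and 0.487), while CD44 stood at 50.8 and 271 CPM and MYC at 4.67 and 34.9 CPM. In the whole stem cell and WNT target list 3 of 7 genes at the level were at least 2-fold higher and 1, PROM1 (-2.01), was lower. The median was 0.79, and 1.44 without MALAT1-rich barcodes. HOX genes of the hindgut were nearly all under 10 CPM, with HOXB6 (5.17 and 12.9 CPM) the exception.

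Brush border and absorptive genes were lower in part. Of 9 absorptive colonocyte genes at the level (18 listed) 4 were at least 2-fold lower and 1 higher, with a median of -0.86. For this list and those below, the shares over all genes were 14.5% lower and 5.9% higher. VIL1, the actin bundler of microvilli, stood at 158 and 27.1 CPM (-2.54), PDZK1 at 27.9 and 3.05 CPM and ANPEP, a brush border peptidase, at 165 and 49.2 CPM, whereas EZR stood at 326 and 376 CPM. Of the 14 microvillus genes at the level 6 were at least 2-fold lower and none higher (median -0.71). Some membrane mucin and CEACAM genes were higher. Of those given here, MUC1 and MUC20 were chosen after their values were seen. MUC1 stood at 69.7 and 616 CPM (3.15), MUC4 at 1.2 and 16.2 CPM, CEACAM5 at 30.8 and 302 CPM and CEACAM1 at 39.5 and 152 CPM, whereas the membrane mucin MUC20 stood at 9.69 and 4.61 CPM. In the goblet and mucus list 3 of 9 genes at the level were at least 2-fold higher and 4 lower, with a median of -0.45. The trefoil peptides TFF1 (687 and 335 CPM), TFF2 (68.4 and 18.8 CPM) and TFF3 (57.1 and 23.2 CPM) were each at least 2-fold lower. ZG16 was at 1036 and 862 CPM, and the gel-forming mucin MUC2 was at 0.803 and 0.794 CPM. REG4 stood at 75.1 and 1.72 CPM (-5.45), and at -4.00 without MALAT1-rich barcodes.

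Keratins 8 and 18 were both higher, KRT8 at 3319 and 7615 CPM (1.2) and KRT18 at 4501 and 11935 CPM (1.41, 1.40 to 1.42), while KRT7 (-0.63) was lower and KRT19 had -0.28, or 0.13 with TMM factors. KRT13 was lower (-2.67), but 71.0% of its CNT UMIs came from 1 barcode and the ratio was 0.02 without MALAT1-rich barcodes. Junction genes did not reach 2-fold in either direction in any of the 19 at the level, where 5.9% of all genes were higher and 14.5% lower. CDH1, E-cadherin, stood at 165 and 232 CPM (0.49), CLDN7 at 405 and 639 CPM (0.66) and CDH17, the intestinal cadherin, at 350 and 182 CPM (-0.94). Their median of 0.06 changed sign over the settings (-0.16 to 0.46).

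Energy metabolism differed at single genes. In the respiratory chain list C15orf48, which takes the place of NDUFA4 in complex IV, stood at 54.5 and 675 CPM (3.63) and NDUFA4 at 1172 and 777 CPM (-0.59). The list's other members lay within 2-fold, with a median of -0.01 (0.39 with TMM factors). SOD2, the mitochondrial superoxide dismutase, stood at 56.3 and 803 CPM against a list median of 0.23 for antioxidant genes. Glucose transporter SLC2A1 stood at 89.2 and 26.3 CPM (-1.76) while hexokinase HK2 stood at 14.5 and 29.1 CPM (1.00). MT2A stood at 424 and 2858 CPM, and its near-identical relatives in the metallothionein list had a median of -0.04 with it (0.37 with TMM factors). Of the unfolded protein response, DDIT3 (1.61) and ATF3 (1.87) were higher and the chaperone HSPA5 (-0.49) was not. In the dissociation stress list 1 of 13 genes was at least 2-fold higher, ATF3, and 1 lower, HSPA1A (-1.17). These counts lie near the shares over all genes, 5.9% higher and 14.5% lower.

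Markers of other cell types were measured beside these results. The mesenchymal list without the collagens of the rule summed to 1357 and 804 CPM, mostly VIM (1216 and 759 CPM), which epithelium can also make, and 2 of its 3 genes at the level were at least 2-fold lower. LUM, a fibroblast proteoglycan, stood at 88.0 and 25.2 CPM. Smooth muscle genes summed to 433 and 259 CPM, endothelial genes to 51.6 and 42.1 CPM, leukocyte genes to 88.2 and 113 CPM and neural genes to 291 and 379 CPM. Among defining markers, the leukocyte gene PTPRC had 7 and 5 UMIs, the T cell gene CD3E 9 and 6, and the glial gene SOX10 2 and 3. Enterocyte genes outside the rule summed to 2776 and 1841 CPM, nearly all of it APOA4, and the peptidase MEP1A stood at 73.8 and 18.5 CPM. The part of these markers in the other results was not tested.

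The share of treated members that lay above nearly all untreated ones differed between lists. Each barcode was thinned to 10000 UMIs, and a 3CK member was counted when its list UMIs exceeded the 99th percentile of CNT members. By this measure 98.7% of 3CK members were above CNT for MHC class I genes (median 25 UMIs in CNT, 264.5 in 3CK), 96.0% for the immunoproteasome (2 and 28), 86.1% for guanylate-binding proteins (0 and 11) and 85.8% for antiviral genes (5 and 174). The share was 59.6% for CXCR3 ligand and CC chemokines (0 and 16.5 UMIs), 58.0% for epithelial defence (20 and 71.5) and 20.9% for neutrophil chemokines (0 and 6). In these lists too the lower quartile of 3CK members (5, 51.25 and 2 UMIs) lay above the upper quartile of CNT members (0, 29 and 1). These quartiles do not describe the lowest 3CK members. Neither they nor the share give the part of the members that differed from CNT, which was not tested. Among single genes, B2M was high in most 3CK members, with quartiles of 76, 100.5 and 131 UMIs. LCN2 was concentrated in a part of the 3CK members: the median was 0, the upper quartile 3 and the highest barcode 146.

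Single genes had a UMI in different shares of thinned 3CK members. GBP5 was found in 88.0% (84.2 to 91.1), IDO1 in 79.4%, CXCL10 in 75.1%, SAA1 in 65.0%, CXCL11 in 62.0%, LCN2 in 42.8%, PIGR in 39%, DEFB4A in 30.2% and CCL3 in 23.8%, against at most 4.23% (SAA1) in CNT members. In the 58 collagen-rich barcodes of the same library PIGR had a UMI in 1.72%, DEFB4A in 0% and LCN2 in 10.3%, whereas CXCL10 had one in 74.1%, SAA1 in 65.5%, IDO1 in 63.8% and CCL3 in 25.9%. The share of members with PIGR, DEFB4A or LCN2 thus stood above that in collagen-rich cells, and the share with CXCL10, SAA1 or CCL3 was about the same in both. For CXCL10 the median member had 4 UMIs, the upper quartile 22 and the highest 193. For IDO1 these were 4, 8 and 37.

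**Figure D3:**
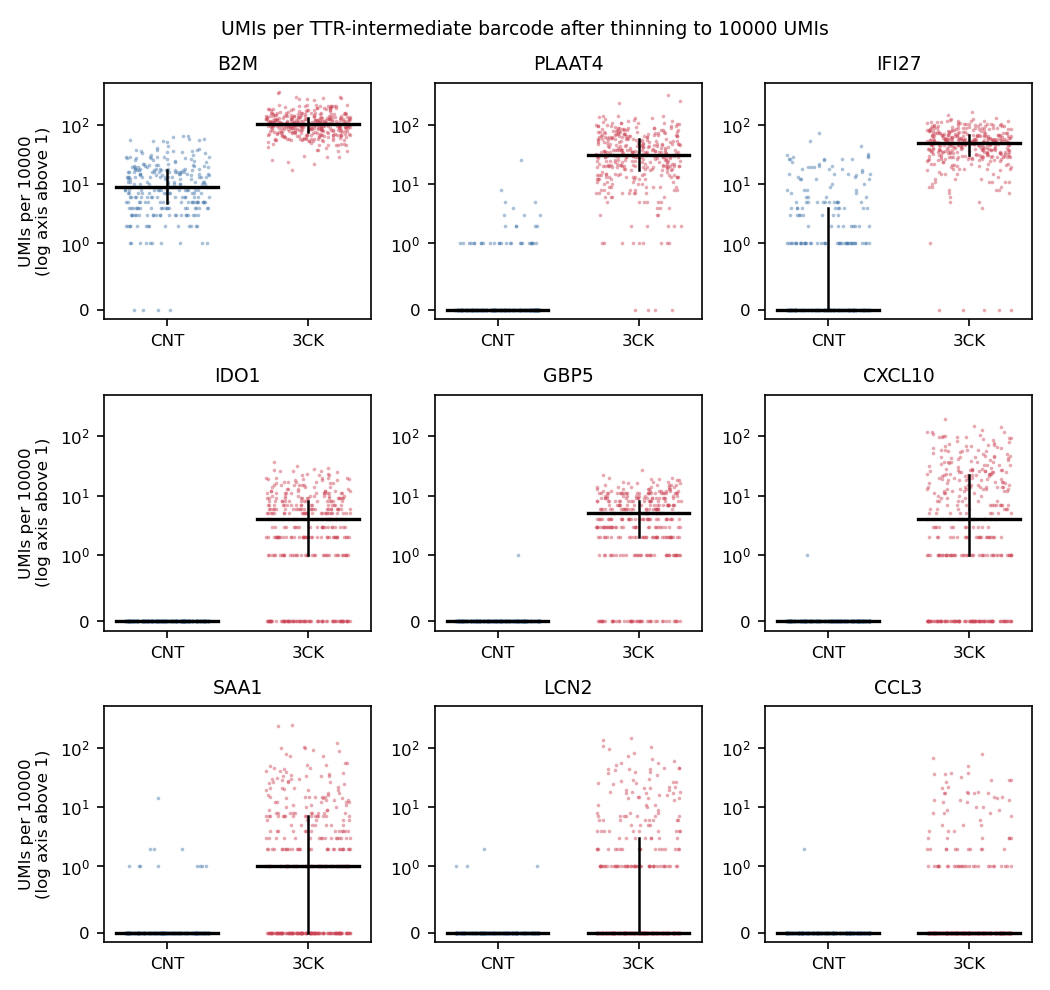
UMIs per barcode of 9 genes after thinning to 10000 UMIs, 1 point a member, with a horizontal bar at the median and a vertical bar from the lower to the upper quartile. B2M is higher in nearly every 3CK barcode (median 100.5 against 9), whereas LCN2 and CCL3 have a median of 0 in both libraries and single barcodes reaching 146 and 77 in 3CK.

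Defence genes overlapped in part. DEFB4A was found in 113 of 374 thinned 3CK members, LCN2 in 160 and SAA1 in 243. SAA1 was present in 94 of the 113 DEFB4A barcodes, which is 83.2% of them and 38.7% of the SAA1 barcodes. CCL20 (216 barcodes) and CXCL5 (272) met in 185, or 85.6% and 68.0%. Across the 374 members, with library and thinned depth in common, Spearman's rho was 0.71 between CXCL10 and CXCL11 and 0.51 between CXCL5 and CCL20. It was -0.20 between CXCL10 and CCL20 and -0.11 between CXCL10 and CXCL5. These values describe cells of 1 library.

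Untreated members varied among themselves in hepatic transcripts. Across the 284 CNT members rho was -0.52 between AFP and KRT18, and across the 374 3CK members it was -0.15. The gene with the largest variance relative to its mean over thinned members was APOA4 in CNT, with a median of 7 UMIs, a maximum of 512 and 33 barcodes at 0, and after the rule genes MALAT1 and TTR it led in 3CK too, with a median of 7 and a maximum of 331. APOA1 and APOA4, neighbours in the genome, had a rho of 0.58 in CNT and 0.59 in 3CK. The metallothionein MT1G was at 0 in 201 of 284 CNT members and reached 343 UMIs in another.

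Within the range, the summed plasma protein list was higher where TTR was higher, and GBP5 and CXCL11 in 3CK were lowest in the top bin. Across single CNT members rho with TTR was 0.21 for APOA1, 0.20 for APOA2 and 0.08 for AFP. In 3CK these were 0.35, 0.39 and 0.22. From 50 to 100, 100 to 200 and 200 to 500 TTR UMIs per 10000, APOA2 stood at 3673, 6174 and 8919 CPM in CNT and at 1853, 3193 and 5217 CPM in 3CK. FGA stood at 933, 1130 and 1407 CPM in CNT and at 316, 478 and 717 CPM in 3CK. In each of the 3 bins both genes were therefore lower in 3CK than in CNT at like TTR. GBP5 in 3CK stood at 636, 643 and 435 CPM and CXCL11 at 312, 339 and 228 CPM. The summed MHC class I list did not share this order, at 25538, 27322 and 26978 CPM. With the 3 bins given equal weight, the ratio of CXCL10 was 13.38 and the median of the plasma protein list -0.69.

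In CNT, fewer genes were 2-fold apart between members and TTR-high cells than between members and TTR-low cells, of which there are 47. Against the 432 TTR-high barcodes (median 72095.5 UMIs), 4.49% of 9408 genes were at least 2-fold higher in CNT members and 0.106% lower, and without MALAT1-rich barcodes 87 genes in place of 422 were higher (854 with equal weight per barcode). Plasma protein genes had a median of -0.44 against TTR-high, and against the 47 TTR-low barcodes (median 78701 UMIs) 2.15, with 17 of 17 at least 2-fold higher where 5.21% of 10376 genes were. Keratins had a median of -1.61 against TTR-low, with 8 of 11 at least 2-fold lower where 8.24% of genes were. Only 7 keratins reached the level against TTR-high, so some of the 11 entered the count through the 47 TTR-low barcodes alone. KRT18 stood at 13786 CPM in TTR-low, 4501 CPM in members and 3155 CPM in TTR-high.

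In 3CK both neighbouring ranges differed from the members. Against the 145 TTR-low barcodes (median 87295 UMIs) 0.695% of 9502 genes were at least 2-fold higher and 7.57% lower, and the latter count of 719 was 117 without MALAT1-rich barcodes and 1628 with equal weight per barcode. KRT18 was close in the 3 ranges, at 11505, 11935 and 10179 CPM. Plasma protein genes still did, with 11 of 17 at least 2-fold higher than in TTR-low and 11 of 17 at least 2-fold lower than in the 65 TTR-high barcodes (median 92507 UMIs), where 2.04% of 8614 genes were. Chemokines were lower in TTR-high cells: 7 of 8 genes of the CXCR3 ligand and CC list were at least 2-fold higher in members, where 4.18% of genes were, with CXCL11 at 285 and 51.1 CPM, CXCL9 at 98.2 and 11.9 CPM and CCL3 at 263 and 17.7 CPM. CCL20 was not, at 422 CPM in members and 491 CPM in TTR-high cells, nor was PIGR, at 95.1 and 147 CPM. FABP1 (62.3 and 471 CPM) and TFF3 (23.2 and 135 CPM) were lower in members than in TTR-high cells.

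The ratio of 3CK to CNT was thus taken in all 3 ranges, where 5.9%, 7.07% and 5.33% of genes were at least 2-fold higher and 14.5%, 8.73% and 6.93% lower in members, TTR-low and TTR-high cells. The antiviral list had a median of 4.30 in members, 3.31 in TTR-low and 4.34 in TTR-high, MHC class I 3.37, 3.02 and 3.47, and epithelial defence 3.53, 3.20 and 3.51. Among the lists of lower genes, detoxification had -2.88, -0.99 and -1.79, and endoderm and liver transcription factors -1.28, -0.02 and -0.63. The ratio of FABP1 was -3.37 in members, -2.41 in TTR-low and -0.90 in TTR-high cells. TFF3 was lower in members (-1.30) and higher in TTR-high cells (0.47). KRT18 had a ratio of 1.41 in members and -0.26 in TTR-low cells, and it was higher in 3CK in TTR-high cells too. The keratin list had medians of 0.44 in members, -1.01 in TTR-low and 0.67 in TTR-high cells. These cover 7, 11 and 5 genes at the level. The differences between ranges have no replicate check, and the range of a cell was set by TTR after treatment.

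**Figure D4:**
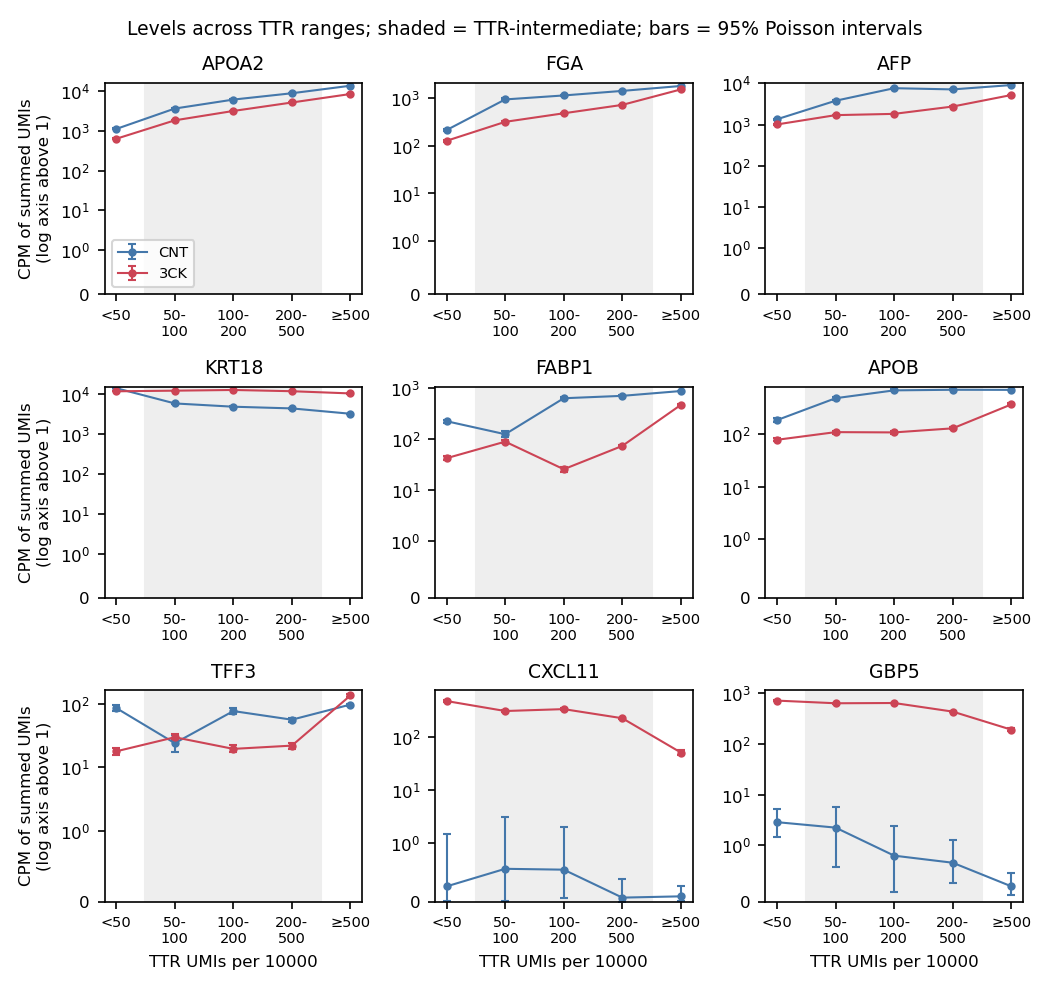
CPM of 9 genes (log axis) in 5 ranges of TTR, from TTR-low through the 3 bins of members (shaded) to TTR-high, for CNT and 3CK, with exact Poisson 95% bars. APOA2 and FGA are higher where TTR is higher within the members of both libraries, KRT18 in CNT goes from 13786 CPM in TTR-low to 3155 CPM in TTR-high and in 3CK from 11505 to 10179 CPM, and FABP1 in 3CK reaches 471 CPM in TTR-high.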

How the data were processed

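Single-cell 3' v3.1 libraries (10x Genomics) were made from CNT and 3CK organoids, 1 per group. The deposited matrices hold raw UMI counts per gene and barcode over 36601 features, made by the authors with Cell Ranger 7.1.0 and the build GRCh38, per the submitters' processing notes. The annotation release is not given in the sources used here. The members and the 47 gene lists (641 symbols, all found) were chosen with earlier results of these data known.

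UMIs were summed over members and scaled by their total. Ratios carry exact binomial 95% intervals, levels exact Poisson ones and shares Clopper-Pearson ones. Where 1 library had 0 UMIs, 3 stood in for it and the ratio is a limit; genes with 3 or fewer in both have no ratio. Per-barcode values were thinned to 10000 UMIs without replacement. Doublets were scored with Scrublet in scanpy 1.11.5. Python 3.11.15, numpy 2.4.6, scipy 1.17.1, pandas 2.3.3, R 4.3.3 and edgeR 4.0.16 (TMM factors only) were used, and the scripts were tested on simulated data. No count test was run because each group is 1 library.

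The genes named were the 12 largest and 12 smallest ratios of genes reaching 50 CPM in either library, the highest, largest and smallest of each list at 10 CPM, the genes of the selection rule, the cytokines and their receptors, the 15 most abundant genes per library, the 5 largest and smallest against each neighbouring TTR range, and the 10 most variable per library. Other genes were named after their values were seen, and some genes that met the rule are not reported here. Alternatives were equal weight per barcode, at least 20000 UMIs, at most 10% mitochondrial UMIs, doublets removed, TTR from 100 to 400, collagen under 1, TTR bins with equal weight, TMM factors, a total without mitochondrial, ribosomal and the 50 most abundant genes, minimum levels of 1 and 50 CPM, no thinning and another seed. Leaving out members with at least 20 MALAT1 UMIs per 10000 was chosen after seeing the data.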

Additional observations from a re-analysis of the deposited data

Results flagged for a closer look

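For 5 of the genes chosen by the naming rule, 3CK and CNT were at least 2-fold apart in opposite directions in TTR-intermediate and TTR-low cells, a difference that was not tested. SPP1, the gene of osteopontin, had a ratio of 1.25 in TTR-intermediate and -5.16 in TTR-low cells, and 1 barcode held 79.1% of its UMIs in CNT TTR-low and 58.5% in 3CK TTR-intermediate cells. The metallothionein MT1B had -3.96 and 5.62, with 1 barcode holding 85% of its UMIs in CNT TTR-intermediate and 82.5% in 3CK TTR-low cells. S100A9, a subunit of the antimicrobial protein calprotectin, had 3.49 and -2.16, with 62.7% of its CNT TTR-low UMIs in 1 barcode. Without MALAT1-rich barcodes the S100A9 ratio in TTR-intermediate cells was 1.34. SLPI, a protease inhibitor of mucosal surfaces, had 2.49 and -3.07, with 57.7% of its CNT TTR-low UMIs in 1 barcode. FRZB, a secreted WNT antagonist, had -1.40 and 1.2, and its UMIs were spread more widely, with 22.2% of those in CNT TTR-low cells in 1 barcode. The CNT TTR-low group is 47 barcodes.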

How the results depend on the processing

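No paired analysis was possible because each group is 1 library. For the same reason no library could be left out. The scaling moved the counts of genes at least 2-fold apart: TMM factors gave 1043 higher and 735 lower in place of 577 and 1421. They left 3 lists with a median of -1 or less, fewer than the main setting. Over the settings the highest medians were -0.89 for endoderm and liver transcription factors and -0.90 for fetal growth genes. For cholesterol synthesis and lipid uptake they were -0.66 and -0.65. A minimum of 1 CPM gave 1109 and 3613 genes, and one of 50 CPM gave 305 and 388. Under the other settings both counts stayed within 1.5 times. TTR from 100 to under 400 left 184 CNT and 242 3CK members, and leaving out MALAT1-rich barcodes left 167 CNT members. Against TTR-high, CNT members had 854 higher and 6 lower genes with equal weight per barcode, and 87 and 17 without MALAT1-rich barcodes, in place of 422 and 10. Against TTR-low, 3CK members had 1628 lower genes with equal weight and 117 without MALAT1-rich barcodes, in place of 719, and against TTR-high 630 higher with equal weight, in place of 360. The causes were not tested.

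Of 3CK members above the CNT 99th percentile, the antiviral share was 81.3% without thinning and 90.6% with another seed, MHC class I 93.0% without thinning and 99.6% without MALAT1-rich barcodes, epithelial defence 63.9% without thinning and 70.3% with another seed, and neutrophil chemokines 25.7% without thinning and 16.8% without MALAT1-rich barcodes. These shares rest on the few highest CNT members, since 1% of 284 is under 3 barcodes. Directions turned for KRT13 (0.82 with TTR from 100 to under 400, 0.015 without MALAT1-rich barcodes), LY6D (0.27 with collagen under 1), and, at 1 CPM, the medians of the HOX list (-0.17) and the MHC class II list (-0.0089). Depth limits CNT levels under 0.151 CPM, and ratios with under 4 UMIs in CNT have wide intervals.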
